A study of Mus musculus with 24 samples.

Results

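Heart was compared with kidney for H3K27Ac, acetylation of lysine 27 of histone H3, over every gene of the mouse genome that the deposited table lists. The comparison used 8 of the 24 samples described for the series, which stand in the table as 4 of its 8 columns: heart Frozen, heart FFPE, kidney Frozen and kidney FFPE. Frozen organs were snap-frozen after harvest and later crosslinked with formaldehyde, and FFPE organs were formalin-fixed, paraffin-embedded, and had their chromatin extracted with heat. Chromatin was sheared by ultrasound and precipitated with an antibody against H3K27Ac, and the DNA was sequenced. All organs came from mice for which the labels give no genotype, treatment, strain, age or sex and no link from an animal to a library. The labels list 2 H3K27Ac replicates for each organ and preservation, in 2 ChIP runs and with a choice of 2 library kits, but the table has 1 column for each organ and preservation. Which run, kit or replicate a column holds, or whether it merges them, is not stated in the sources used here, so each column was taken as 1 library.

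H3K27Ac is laid down by acetyltransferases at promoters and enhancers that are in use, and it is commonly read as a mark of active regulatory DNA. The heart is mostly contracting muscle cells by volume, with many endothelial cells and fibroblasts between them, and it lives on fatty acid oxidation. The kidney is mostly epithelium, arranged in nephrons that filter blood at the glomerulus and recover salts, sugars and amino acids along the tubule. Because whole organs were profiled, fewer cells of a type and less of the mark per cell cannot be told apart in any value given here.

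Values are log2 CPM, the log2 of reads over a gene relative to the library size, so that a difference of 1 stands for a 2-fold difference. Libraries are compared gene by gene, and no level is set against that of another gene. The total count was 4808023 in Frozen and 5743071 in FFPE for heart and 4836830 in Frozen and 5309082 in FFPE for kidney, and the median gene had 87 to 116 counts. Mitochondrial genes took 36.0% of the counts in heart FFPE and 18.4% in kidney FFPE, against 5.45% in heart Frozen and 4.52% in kidney Frozen. The spread of values over genes, as the median absolute deviation, was 2.37 in heart Frozen and 1.79 to 1.90 in the other heart and kidney libraries. The part of the mitochondrial share in the results was not tested. Differences are heart minus kidney, averaged over both preservations, with a standard error (SE) and an adjusted p from limma, a linear model fitted across all genes with organ and preservation as terms and the 8 libraries of all 4 organs setting the spread. With 1 library for each organ and preservation, p-values rest on how far libraries scatter once those terms are removed. A gene's own scatter has 3 residual degrees of freedom, and the trend over all genes adds 30.6, so most of the spread is shared between genes. Scatter between replicates of 1 organ and preservation could not be estimated on its own. What remains after the terms mixes scatter between libraries with organ differences that change with preservation. Differences within 1 preservation have no test.

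The organs differed at genes that define their own tissue. Of 26944 genes tested, 2617 (9.71%) passed an adjusted p of 0.05. Of these, 1448 (5.37% of all genes) were higher in heart, led by genes of the contractile apparatus such as Actc1 and Myh6 and by the muscle cytochrome oxidase subunit Cox6a2. The other 1169 (4.34%) were higher in kidney, led by tubule and epithelial genes such as Pdzk1ip1, Prss8 and Cldn8 and by the Hox genes. This balance turned to 1251 against 1408 under quantile normalization, to 1262 against 1485 when all libraries were given the same median and spread, and to 278 against 460 without heart Frozen. Without kidney Frozen it was 299 against 348. The median difference over all genes was -0.01. The smallest difference that passed was 0.75, and a difference of at least 4-fold was found in 113 of the genes higher in heart and in 252 of those higher in kidney. At an unadjusted p of 0.05, 6075 genes passed. The number past the threshold fell to 738 without heart Frozen, to 647 without kidney Frozen and to 1212 when kidney FFPE was left out, and was 2361 when heart FFPE was. It was 1274 without preservation as a term and 340 when the prior variance did not follow the mean. Counts for the gene lists are therefore given with their range when 1 of these 4 libraries was left out. The lower end of each range came without heart Frozen, kidney Frozen or kidney FFPE. These ranges do not cover the fit in which the prior variance did not follow the mean. In that fit 10 sarcomere, 3 endothelial and 0 immediate early genes were higher in heart. In kidney 16 Hox, 11 proximal tubule and 6 epithelial genes were higher, and each of these counts lies below the range of its list. The fibroblast (1) and oxidative phosphorylation (2) counts in heart stayed within theirs.

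The direction held in both preservations. Every one of the 2617 genes past the threshold differed the same way in Frozen as in FFPE, and in 2602 of them the 2 heart libraries lay wholly on one side of the 2 kidney libraries. Since the test averages the preservations, a gene that reversed between them could hardly pass, so these counts follow in part from the test. Over all genes tested 65.4% had the same sign, 33.2% higher in heart and 32.2% lower, and 24.1% had both heart libraries above both kidney libraries and 23.9% both below. The difference was the larger one in Frozen for 1995 of the called genes (76.2%), among them 1238 of those higher in heart, and its median size was 1.43 in Frozen and 1.06 in FFPE.

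Genes were also counted within each preservation, with no test. Among 19340 genes with a mean of at least 3 (log2 CPM) over the 4 libraries, 1990 were at least 2-fold higher in heart in Frozen tissue and 779 in FFPE tissue, and 547 (2.83%) were in both sets. Those 547 were 27.5% of the Frozen set and 70.2% of the FFPE set. In the other direction, 1579 genes were at least 2-fold higher in kidney in Frozen and 941 in FFPE, and the 583 (3.01%) in both sets were 36.9% and 62.0% of them. Only 8 genes were 2-fold apart in opposite directions. Across these genes, which are not independent replicates and share 4 libraries, the Frozen and FFPE differences had a Pearson correlation of 0.67. Their Spearman correlation was 0.58, and over all genes tested the Pearson correlation was 0.40.

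**Figure D1:**
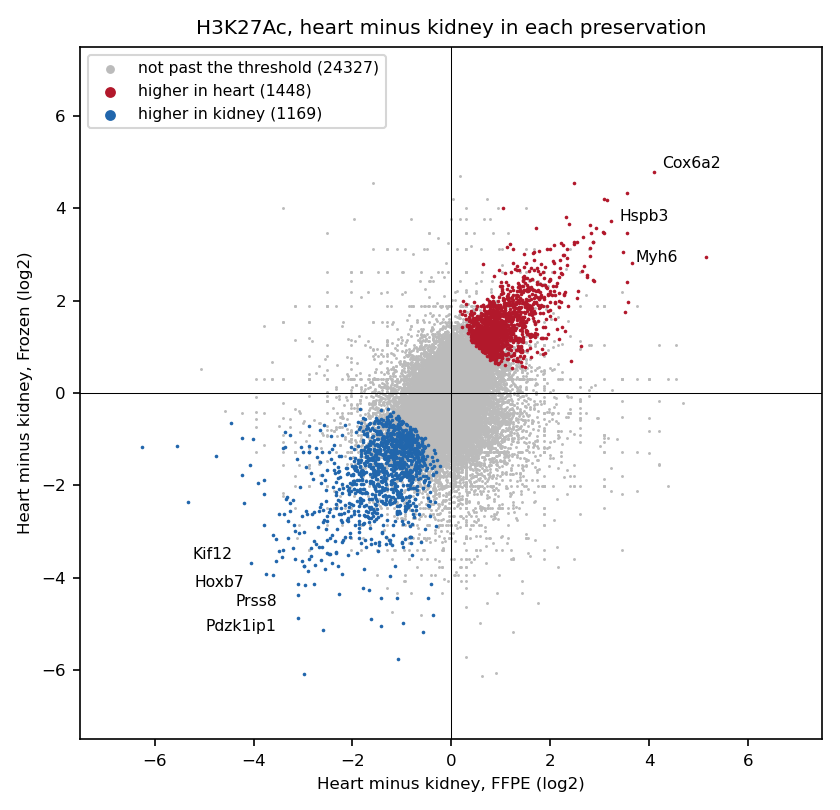
Each point is a gene, with its heart minus kidney difference in FFPE on the x axis and in Frozen on the y axis (both log2). The 1448 genes higher in heart (red) and the 1169 higher in kidney (blue) lie in the quadrants where both preservations have the same sign, and grey genes did not pass the threshold.

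Among called genes with a mean of at least 3 over the 4 libraries and no overlap between the organs, the largest difference in favour of heart was at Cox6a2 (chromosome 7, 128205435 to 128206366, mm10), which encodes the heart and skeletal muscle form of a subunit of cytochrome c oxidase. Its level was 5.94 in heart Frozen and 5.45 in heart FFPE against 1.15 in kidney Frozen and 1.36 in kidney FFPE. Brain and liver lay near kidney, at 1.76 to 2.41. The difference was 4.44 (SE 0.46, adjusted p = 2.7e-08), from 279 and 188 counts in heart and 12 and 13 in kidney.

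Hspb3, a small heat shock protein of muscle (chromosome 13, 113662896 to 113663676), read 4.99 and 4.78 in heart Frozen and FFPE and 1.26 and 1.56 in kidney, a difference of 3.48 (SE 0.45, adjusted p = 1.3e-06). Actc1, the cardiac form of the thin filament protein actin (chromosome 2, 114047282 to 114052875), read 6.36 and 6.14 in heart and 2.88 and 3.08 in kidney. For Myh6, the fast myosin motor of the adult mouse heart (chromosome 14, 54941921 to 54968017), the values were 8.75 and 8.86 in heart and 5.70 and 5.38 in kidney. Both differed by 3.27, with SE 0.37 for Actc1 and 0.25 for Myh6. In each of these genes the heart libraries stood well above every kidney library, and Frozen and FFPE of 1 organ differed by under 1.

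The heart and kidney libraries did not overlap in the rest of the 12 largest differences either, which ran down to 2.98. They included the heart transcription factor Hand2 (3.26), the ventricular myosin light chain Myl2 (3.14) and the cardiomyocyte protein Lrrc10 (3.07). The natriuretic peptide gene Nppb (3.07), the potassium channel Kcna5 (2.98) and Mir1a-1hg, the host transcript of a muscle microRNA (3.02), were also among them. Kcnj11, the pore subunit of the ATP-sensitive potassium channel (3.23), was the one of these whose level in brain reached that in heart, with 6.40 (Frozen) and 7.29 (FFPE) in brain against 8.11 and 7.22 in heart.

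In favour of kidney, the largest difference among such genes was at Pdzk1ip1, which encodes a small membrane protein of the proximal tubule (chromosome 4, 115088708 to 115093894). Its level was 6.65 in kidney Frozen and 5.98 in kidney FFPE against 1.77 in heart Frozen and 2.87 in heart FFPE. The difference was -4.00 (SE 0.39, adjusted p = 6.6e-09). Kif12, a kinesin of kidney epithelium (chromosome 4, 63157948 to 63172145), read 6.88 and 6.73 in kidney and 3.19 and 2.68 in heart, a difference of -3.87 (SE 0.31). Prss8, or prostasin, a protease that activates the epithelial sodium channel, differed by -3.74 and Cldn8, a claudin of distal tight junctions, by -3.46. The nephron transcription factor Pax8 differed by -3.36.

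Several of the genes higher in kidney were high in liver as well. Pck1, the rate-limiting enzyme of gluconeogenesis (chromosome 2, 173153073 to 173159274), read 8.03 and 7.43 in kidney Frozen and FFPE, 3.89 and 4.33 in heart, and 8.82 and 8.05 in liver. Rnf186, a ubiquitin ligase, read 6.51 and 6.19 in kidney, 2.64 and 3.30 in heart, and 7.24 and 6.16 in liver. The transcript 4930442L01Rik had 6.90 and 5.79 in kidney, 1.77 and 3.20 in heart, and 6.49 and 5.36 in liver. Over all called genes, heart stood above the other 6 libraries in 983 of the 1448 genes higher in heart (67.9%), while kidney stood above the other 6 in 523 of the 1169 genes higher in kidney (44.7%). In 410 of those 1169 (35.1%) heart lay below all 6 others, and in 698 both liver libraries were above both heart libraries. Kidney was the lowest organ in 165 of the genes higher in heart (11.4%). Whether these shares differ between the directions was not tested.

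**Figure D2:**
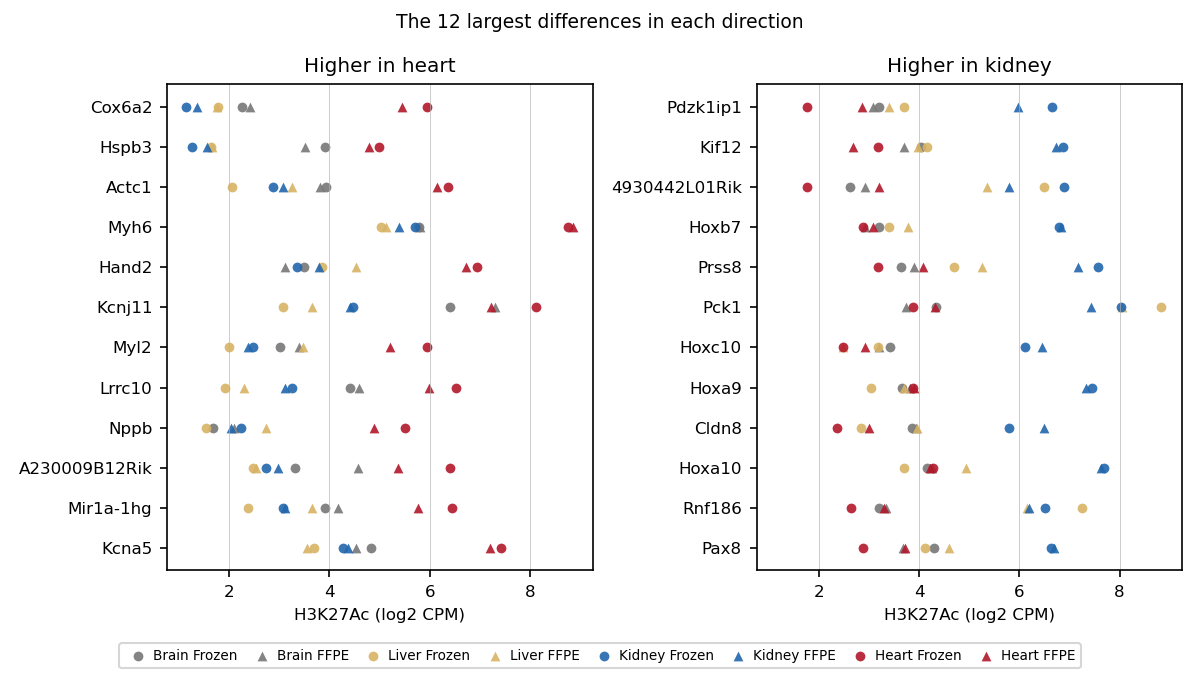
H3K27Ac (log2 CPM, x axis) of the 12 genes with the largest difference in each direction among called genes with a mean of at least 3, with circles for Frozen and triangles for FFPE and 1 colour for each organ. Heart and kidney do not overlap in any of the 24 genes, and Kcnj11, Pck1, Rnf186 and 4930442L01Rik are also high in brain or liver.

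The promoters of 6 of these genes are shown to give the sequence just upstream of genes with large differences, searched for binding motifs known from muscle and kidney. They are the first 3 in each direction with a RefSeq window, 250 bases upstream of the start on the gene's strand (GRCm38.p6, the assembly of mm10), and capitals mark motif matches. The windows of Myh6 and Kif12 end at a start inside the annotated span of the gene, the other windows lie outside that span, and no deposited value belongs to a window alone.
Hspb3, chr13:113663677-113663926, minus strand: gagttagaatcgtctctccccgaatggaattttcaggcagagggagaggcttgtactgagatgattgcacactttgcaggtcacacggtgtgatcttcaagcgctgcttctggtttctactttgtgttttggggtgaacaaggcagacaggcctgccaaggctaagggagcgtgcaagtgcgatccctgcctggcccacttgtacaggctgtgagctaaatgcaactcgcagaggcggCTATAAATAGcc
Actc1, chr2:114052876-114053125, minus strand: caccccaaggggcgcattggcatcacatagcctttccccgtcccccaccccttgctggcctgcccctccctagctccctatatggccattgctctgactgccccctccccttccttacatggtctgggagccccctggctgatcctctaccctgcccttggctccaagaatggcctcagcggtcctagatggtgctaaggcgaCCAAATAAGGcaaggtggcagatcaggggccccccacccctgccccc
Myh6, chr14:54966608-54966857, minus strand: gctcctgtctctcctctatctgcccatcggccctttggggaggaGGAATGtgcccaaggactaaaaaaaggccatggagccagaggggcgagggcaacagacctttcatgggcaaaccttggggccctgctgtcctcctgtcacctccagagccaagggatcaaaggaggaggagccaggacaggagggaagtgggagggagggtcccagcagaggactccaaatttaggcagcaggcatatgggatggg
Pdzk1ip1, chr4:115088458-115088707, plus strand: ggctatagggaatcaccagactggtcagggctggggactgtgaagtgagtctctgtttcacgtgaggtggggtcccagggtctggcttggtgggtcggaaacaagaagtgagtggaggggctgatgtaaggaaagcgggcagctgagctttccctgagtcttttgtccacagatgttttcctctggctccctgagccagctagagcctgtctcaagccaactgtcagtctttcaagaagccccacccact
Kif12, chr4:63172132-63172381, minus strand: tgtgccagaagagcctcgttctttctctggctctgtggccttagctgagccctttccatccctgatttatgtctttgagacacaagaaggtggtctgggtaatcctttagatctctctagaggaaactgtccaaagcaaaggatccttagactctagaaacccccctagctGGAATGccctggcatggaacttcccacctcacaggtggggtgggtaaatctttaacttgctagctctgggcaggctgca
Pck1, chr2:173152823-173153072, plus strand: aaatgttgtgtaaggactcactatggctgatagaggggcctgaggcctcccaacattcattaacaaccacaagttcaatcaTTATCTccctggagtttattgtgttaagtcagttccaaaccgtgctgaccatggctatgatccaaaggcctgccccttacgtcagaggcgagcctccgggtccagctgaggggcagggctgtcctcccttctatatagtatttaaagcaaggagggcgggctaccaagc
The Hspb3 window ends in a MEF2 box that overlaps a TATA box, the Actc1 window holds a CArG box, the site of serum response factor, and the Myh6 and Kif12 windows each hold an MCAT motif on the opposite strand. The Pck1 window holds a GATA site on the opposite strand, and the Pdzk1ip1 window holds none of the motifs searched.

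All motifs were exact matches on either strand. The motif of the GATA factors was searched as AGATAA. The muscle motif named MCAT was searched as CATTCC. The box that positions the start of transcription was searched as TATAAA, and it can overlap the MEF2 box, which was searched by its consensus like the CArG box. Of 18438 tested genes with a window, 1.43% held a CArG box, 0.504% a MEF2 box, 11.7% an MCAT motif and 9.05% a GATA site. Of the 25 sarcomere genes with a window, 20% held a CArG box, namely Actc1, Ldb3 and Myl3, which were higher in heart, and Myl7 and Myom1, which did not pass. The same 25 windows held a MEF2 box in 12% (Mybpc3, Myoz2 and Ttn), an MCAT motif in 32% and a GATA site in 24%. Over the 1025 windows of all genes higher in heart, the shares were 1.95% for the CArG box, 1.76% for the MEF2 box, 12.6% for MCAT and 6.63% for the GATA site. None of the 23 windows of the muscle energy list held a CArG or a MEF2 box. Of the 842 windows of genes higher in kidney, 6 (0.713%) held an HNF1 site and 5 (0.594%) an HNF4 site. Over all windows these shares were 0.0542% (10 windows) and 0.385%, and over genes higher in heart 0% and 0.39%. The same 842 windows held a CArG box in 1.54%, a MEF2 box in 0.594%, MCAT in 12% and a GATA site in 10.1%. These matches describe letters in the windows and not bound sites.

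Genes of the sarcomere, the repeating unit of thick and thin filaments, were higher in heart in 22 of 28 cases, and none was higher in kidney. The median difference of the list was 1.74, with 2.05 in Frozen and 1.67 in FFPE. Tnni3, the cardiac troponin I of the thin filament, read 6.32 and 5.72 in heart and 3.04 and 3.17 in kidney. Csrp3, a sensor of the Z disc, read 5.45 and 5.28 against 2.17 and 2.79. Ttn, the giant spring of the sarcomere, differed by 1.55 (SE 0.39), with 10.51 and 10.74 in heart and 9.11 and 9.03 in kidney. The 6 genes that did not pass were Myl7, Myl4, Myom1, Myom2, Myom3 and Nebl. Myl7, the atrial light chain, read 2.64 in heart Frozen and 4.47 in heart FFPE and 2.23 and 2.63 in kidney. With 1 of the 4 libraries left out, 12 to 20 sarcomere genes passed, with the fewest without heart Frozen.

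Genes that move calcium and shape the cardiac action potential followed in smaller number. Of 18 genes of excitation-contraction coupling, 9 were higher in heart, and 4 to 7 were with a library left out. Pln, phospholamban, the brake on the calcium pump, read 7.35 and 6.99 in heart and 4.73 and 4.91 in kidney (difference 2.35, SE 0.26, adjusted p = 9.8e-08 in limma). Jph2, which ties the plasma membrane to the calcium store, differed by 2.10 and the pump Atp2a2 itself by 0.96. The sodium-calcium exchanger Slc8a1, which the kidney also uses, read 7.46 and 7.75 in heart and 7.68 and 7.99 in kidney and did not pass.

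Of 22 ion channel and connexin genes, 9 were higher in heart, among them the potassium channel subunit Kcne1 (2.15) and the gap junction gene Gja1 (2.05). Of 15 intercalated disc and membrane anchor genes, 6 were higher in heart, led by Popdc2 (2.85), Sgca (1.90) and Des, the muscle intermediate filament desmin (1.83). Desmosome genes that epithelia share did not pass: Dsp read 6.74 and 6.81 in heart and 6.20 and 6.45 in kidney, and Jup 6.99 and 7.12 against 6.32 and 6.68. No gene of either list was higher in kidney, and 6 to 9 channel genes and 3 to 4 disc genes were higher in heart with a library left out. Sgca was lost without heart Frozen (adjusted p = 0.0737 in limma).

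The transcription factors of the heart were higher there in 13 of 25 cases, and in 7 to 13 with a library left out. Hand2 read 6.93 and 6.72 in heart Frozen and FFPE and 3.35 and 3.78 in kidney. Gata4 read 6.85 and 6.64 against 4.20 and 3.99 (difference 2.65, SE 0.27), Nkx2-5 5.48 and 5.16 against 3.35 and 2.87, and Gata6 differed by 2.20. Tbx20, Tbx5, Myocd, Irx4, Zfpm2, Mef2a, Meis1, Hopx and Mef2d also passed, with differences of 0.78 to 1.95. None of the list was higher in kidney, and 1 was under quantile normalization or with the same median and spread in all libraries. The 5 members with lower values in heart than in kidney in both preservations did not pass. They were Isl1 (-0.66), Hand1 (-0.73), Esrra (-0.67), Esrrg (-0.56) and Prdm16 (-0.08).

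Of 27 genes of muscle energy supply, 12 were higher in heart. Beside Cox6a2 these included Mb, the oxygen store myoglobin (6.38 and 5.76 in heart, 3.24 and 3.42 in kidney), Cox8b (2.56), the fatty acid transporter Cd36 (2.10), the lipase Lpl (1.67), the creatine kinase Ckm (1.70) and the insulin-regulated glucose transporter Slc2a4 (1.34). Fatty acid enzymes of mitochondria were not among them: Acadm, Acadvl, Hadha, Hadhb, Cpt1b and Mlycd differed by 0.25 to 0.76 and did not pass. Cpt1b had 54 and 28 counts in heart Frozen and FFPE and 40 and 34 in kidney. Of 81 nuclear genes of oxidative phosphorylation, 5 (6.17%) were higher in heart, namely Cox6a2, Cox8b, Ndufs4, Ndufs7 and Atp5a1, close to the 5.37% of all genes, although the median of the list was 0.33. With a library left out, 7 to 12 of the energy genes and 2 to 5 of the oxidative phosphorylation genes passed.

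The heart is also an endocrine organ through its natriuretic peptides. Nppb read 5.51 and 4.89 in heart and 2.23 and 2.03 in kidney (difference 3.07, SE 0.48). Nppa, the atrial peptide, read 3.08 in heart Frozen, 5.45 in heart FFPE and 2.38 and 3.01 in kidney, a difference of 0.69 in Frozen and 2.43 in FFPE and of 1.56 over both (SE 0.49, adjusted p = 0.0353). Without heart FFPE the adjusted p of Nppa was 0.491, without kidney FFPE 0.331 and without kidney Frozen 0.124. Corin, the protease that matures the atrial peptide, differed by 1.46 (SE 0.29). The receptors Npr1, Npr2 and Npr3 and the protease Furin were higher in heart by 0.37 to 0.59 and did not pass, and Nppc differed by 0.00.

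Markers of other cells of the heart were higher there in part. Of 25 endothelial genes, 13 were higher in heart, and 7 to 11 with a library left out. Cldn5, the tight junction protein of endothelium, read 6.25 and 5.93 in heart and 4.09 and 3.93 in kidney, and Kdr, the main receptor for vascular endothelial growth factor, differed by 1.62 (SE 0.26). The summed level of the 25 genes was 2640 and 2470 CPM in heart Frozen and FFPE and 1103 and 1405 in kidney, with no member at 0 counts. Ehd3, known from glomerular endothelium, had the opposite sign (-0.38) and did not pass. Of 15 fibroblast genes, 5 were higher in heart (Meox1, Lum, Dcn, Col3a1 and Fbn1), and their number fell to 1 without heart Frozen or without kidney Frozen. None of 10 smooth muscle genes passed.

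Immediate early genes, which switch on within minutes of a stimulus or of tissue handling, were higher in heart in 12 of 27 cases with a list median of 0.76. Klf2 read 7.63 and 7.57 in heart and 5.67 and 6.12 in kidney, and Fos 6.73 and 6.25 against 5.14 and 5.58. Only 3 passed without heart Frozen, 4 without kidney Frozen, 6 when kidney FFPE was dropped and 9 when heart FFPE was, and 7 passed when all libraries were given the same median and spread or with no filter on low values. Without preservation as a term 4 passed, and 0 passed when the prior variance did not follow the mean. The time between harvest and fixation or freezing is not stated in the sources used here, and the part of tissue handling was not tested.

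All 4 Hox clusters were higher in kidney. Hox genes encode transcription factors laid out along the chromosome in the order in which they pattern the body axis, and the kidney arises from mesoderm of the trunk, behind the heart field. Of 39 Hox genes tested, 30 were higher in kidney and none in heart, with a median difference of -1.75 (-1.81 in Frozen, -1.79 in FFPE). Hoxb7 read 6.80 and 6.84 in kidney and 2.88 and 3.08 in heart (difference -3.84, SE 0.33, adjusted p = 9.9e-10). Hoxc10 differed by -3.59, Hoxa9 by -3.49 and Hoxa10 by -3.41. With a library left out, 18 to 27 Hox genes passed, with the fewest without kidney FFPE.

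Calls were found in paralog groups 1 to 11. In the fit with all libraries, all 15 genes of paralog groups 4 to 8 and all 10 of groups 9 to 11 were higher in kidney, with medians of -1.92 and -2.69. Several of these calls did not hold with a library left out. Those of Hoxa4 (-1.45 to -1.28) and Hoxc4 (-1.46 to -0.948) were lost without any 1 of the 4 libraries. Those of Hoxa6, Hoxc11 and Hoxd11 were lost without heart Frozen, kidney FFPE or kidney Frozen (-2.48 to -0.997). Hoxc5 and Hoxc8 were lost without heart Frozen or kidney FFPE. Hoxc6 was lost without heart FFPE, kidney FFPE or kidney Frozen (-2.05 to -0.795). Without kidney FFPE, Hoxd4 (-1.44) and Hoxd8 (-1.89) were lost too. Of the 8 genes of groups 1 to 3, 5 passed. None of the 6 genes of groups 12 and 13, which pattern the hindmost body, passed. Their median was still negative, at -0.72, and 5 of the 6 had a negative difference. The border is therefore one of calls and not of sign, and Hoxa13 was the 1 gene with a positive difference. Hoxa13 read 2.79 and 3.04 in heart and 2.38 and 2.49 in kidney, while Hoxa11, at the other side of that border, read 2.88 and 2.57 in heart and 4.38 and 5.22 in kidney, a call lost without kidney FFPE (adjusted p = 0.139 in limma). The counts were 8 of 11 in Hoxa, 9 of 10 in Hoxb, 7 of 9 in Hoxc and 6 of 9 in Hoxd. Neighbouring Hox genes overlap and share chromatin domains, so they are not independent. Whether the groups of paralogs differ from each other was not tested.

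**Figure D3:**
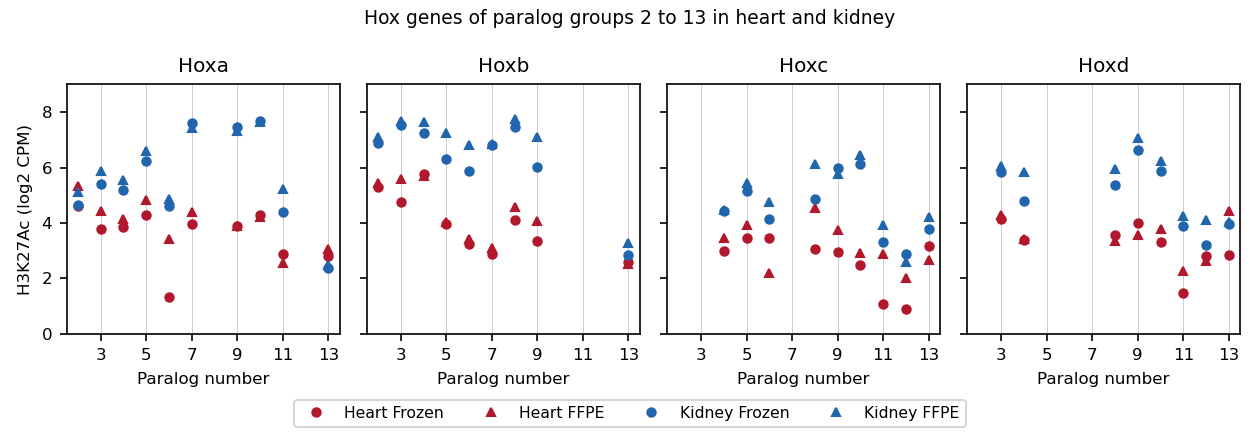
H3K27Ac (log2 CPM, y axis) of each Hox gene by paralog number from group 2 on (x axis) in the Hoxa, Hoxb, Hoxc and Hoxd clusters, with circles for Frozen, triangles for FFPE, red for heart and blue for kidney. Kidney lies above heart at every gene of groups 4 to 11, and no gene of groups 12 and 13 passed the threshold. Levels are to be compared within a gene.

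Some microRNA genes inside these regions were called as well. Of 578 microRNA genes tested, 7 (1.21%) were higher in heart and 8 (1.38%) in kidney, below the 5.37% and 4.34% of all genes. In all, 495 of the 578 had an entry in the RefSeq table, and counts over such short genes were low. The mature forms below are shown because their genes lie in called regions and the members of each pair share a seed, the bases 2 to 8 that pair with a target, given in capitals.
miR-208a-3p, chr14:54949072-54949093: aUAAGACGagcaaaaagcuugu
miR-208b-3p, chr14:54975710-54975731: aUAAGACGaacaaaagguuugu
miR-196a-5p, chr15:102973365-102973386: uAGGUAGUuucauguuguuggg
miR-196b-5p, chr6:52230129-52230150: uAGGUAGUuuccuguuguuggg
Mir208a and Mir208b lie in Myh6 and Myh7 and were named after their values had been seen. Mir208a had 23 counts in heart Frozen and 43 in heart FFPE against 5 and 4 in kidney, and Mir208b had 17 and 24 against 5 and 2. Mir196b, between Hoxa9 and Hoxa10, had 55 and 52 counts in kidney Frozen and FFPE and 2 and 5 in heart. Mir196a-2, beside Hoxc10, had 9 and 24 in kidney and 1 and 0 in heart. The call of Mir196b was lost without heart Frozen, kidney FFPE or kidney Frozen (adjusted p = 0.0854 to 0.41 in limma), and that of Mir196a-2 without heart FFPE, heart Frozen or kidney FFPE (0.081 to 0.394). Reads over Mir208a and Mir208b cannot be told apart from those over Myh6 and Myh7, and the libraries measured a chromatin mark and not the microRNA.

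Runs of neighbouring genes showed the same loci. At least 4 consecutive genes were called in the same direction in 17 places, 7 higher in heart and 10 higher in kidney, with 98 genes in all. The longest was the Hoxa cluster, with 13 genes from Hoxa3 to Hoxa11os over 80.7 kb of chromosome 6 (52169059 to 52249769). It was followed by 9 genes of Hoxc and 7 of Hoxd. A run ends where 1 member does not pass, so its length depends on the setting. Under quantile normalization Hoxc11, Mir615 and Hoxc4 of the Hoxc run did not pass (adjusted p = 0.0601 to 0.0902 in limma). With no filter on low values Mira, inside the Hoxa run, did not (0.055). A run of 7 on chromosome 7 (119442537 to 119662515) held Gp2, Umod, Pdilt, Acsm5, Acsm2, Acsm1 and Gm19950. In it Acsm2, an acyl-CoA synthetase of the proximal tubule, read 8.10 and 7.47 in kidney and 4.28 and 4.92 in heart. Umod, the uromodulin gene of the thick ascending limb, lies in the same run, and Gp2 was lost without kidney FFPE (adjusted p = 0.071 in limma). The longest run in favour of heart held 6 genes of chromosome 14 (54936176 to 54994626), Cmtm5, Myh6, Mir208a, Mhrt, Myh7 and Mir208b. Mhrt, the long noncoding transcript between the myosin genes, read 5.06 and 3.79 in heart and 1.26 and 1.46 in kidney.

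Transcription factors of the nephron were higher in kidney in 22 of 32 cases, and in 12 to 17 with a library left out. Pax8 read 6.63 and 6.69 in kidney Frozen and FFPE and 2.88 and 3.71 in heart. Emx2 differed by -3.07 and Tfcp2l1, a factor of the distal nephron, by -3.00. The proximal tubule factor Hnf4a differed by -1.94. Wt1 and Bhlhe41 were higher in heart, by 1.70 and 1.33. Bhlhe41 differed by 0.74 without heart Frozen and was then lost (adjusted p = 0.371 in limma), as it was without kidney Frozen (0.106). Wt1 is a factor of podocytes in the kidney and of the epicardium in the heart, and read 6.32 and 5.98 in heart and 4.54 and 4.36 in kidney.

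Genes of each segment of the tubule were higher in kidney, beginning with the proximal tubule, which recovers most of the filtrate. Of 35 proximal tubule genes, 26 were higher in kidney and none in heart, with a list median of -1.43 (-1.87 in Frozen, -1.13 in FFPE). Slc34a1, the phosphate transporter of the brush border, read 7.32 and 6.62 in kidney and 4.14 and 4.11 in heart (difference -2.84, SE 0.28). Miox, which breaks down inositol, differed by -2.98 and the androgen-regulated Kap by -4.54 (SE 0.59), with 5.71 and 3.97 in kidney and -0.38 and 0.98 in heart. The neutral amino acid transporters Slc6a19 and Slc6a18 differed by -2.49 and -2.44. Of the endocytic receptors, Lrp2 (megalin) was higher in kidney (-1.20), whereas Cubn (cubilin), with 6.61 and 7.01 in heart and 6.76 and 6.80 in kidney, did not pass. With a library left out, 15 to 24 of the 35 passed.

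In the loop of Henle list, 10 of 14 genes were higher in kidney, among them Umod (5.93 and 6.43 in kidney, 2.92 and 3.46 in heart), Cldn10, the barttin gene Bsnd and the salt transporter Slc12a1 (-1.90, SE 0.28). Cldn19 was the exception and was higher in heart by 1.16, with 7.18 and 7.26 in heart and 5.89 and 6.23 in kidney, a call lost without heart Frozen (adjusted p = 0.076) or without kidney Frozen (0.131). Of 12 distal tubule genes, 7 were higher in kidney, led by Klk1 (-2.56) and Fxyd2, a subunit of the sodium pump (-1.99), while the thiazide-sensitive transporter Slc12a3 had -0.73 and did not pass. Of 20 collecting duct genes, 10 were higher in kidney, led by the vasopressin receptor Avpr2 (-2.69) and the water channel Aqp3 (-1.87). Aqp2, the channel that vasopressin controls, read 4.58 and 5.37 in kidney and 3.78 and 3.81 in heart. Without a library, 4 to 9 of the loop genes, 4 to 6 of the distal and 2 to 5 of the collecting duct genes passed, the last fewest without kidney FFPE, where Aqp3 was lost (adjusted p = 0.0961 in limma). With no filter on low values 6 collecting duct genes passed.

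The podocyte list went against its name. Podocytes are the filtering cells of the glomerulus and a small part of the kidney. Of 17 genes, 5 were higher in heart, among them Wt1, Nes, Synpo and Clic5, and 1 in kidney, the basement membrane collagen Col4a3 (-1.11). Nphs1, the nephrin gene that defines podocytes, read 4.90 and 5.03 in kidney and 4.48 and 4.90 in heart and did not pass. Nes, Synpo and Clic5 are also known from muscle or endothelium. The 5 became 1 without heart Frozen or without kidney Frozen and 3 when all libraries were given the same median and spread. Col4a3 was lost without heart Frozen (adjusted p = 0.0571 in limma), kidney FFPE (0.0549) or kidney Frozen (0.0958).

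Genes of epithelial cells in general, the junctions, keratins and splicing factors of sheet-forming cells, were higher in kidney. Of 24 genes, 21 were higher in kidney and the remaining 3 (Krt19, St14 and Rab25) had the same sign, so that all 24 had lower values in heart in both preservations. Prss8 read 7.57 and 7.17 in kidney and 3.19 and 4.07 in heart. Cldn2, the cation pore of the proximal tubule, differed by -3.03, the adhesion gene Cdh1 (E-cadherin) by -1.37 and Epcam by -1.80. The summed level of the 24 genes was 1173 and 1214 CPM in kidney Frozen and FFPE and 305 and 401 in heart. With a library left out, 10 to 19 passed.

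Endocrine and metabolic genes of the kidney followed. Kl, the klotho co-receptor for a phosphate hormone, read 6.94 and 6.23 in kidney and 4.82 and 4.80 in heart (difference -1.78, SE 0.28). The parathyroid hormone receptor Pth1r, the vitamin D activating enzyme Cyp27b1 and the vitamin D receptor Vdr were higher in kidney, with differences of -1.29, -1.20 and -0.91. The other 7 of the 11 genes did not pass, among them Ren1, the renin gene, with 3.76 and 4.15 in kidney and 3.08 and 2.78 in heart (-1.03, adjusted p = 0.0693), and Epo (-0.77). Of 8 genes of gluconeogenesis, 5 were higher in kidney, among them Pck1, G6pc (-2.30), Fbp1 (-2.21) and Slc37a4 (-1.03). The call of Slc37a4 was lost when any 1 of the 4 libraries was left out (adjusted p = 0.0573 to 0.201 in limma). Pck2, the mitochondrial form of the enzyme encoded by Pck1, was higher in heart by 0.89, a call that was lost without heart Frozen (adjusted p = 0.563), without kidney Frozen (0.365) and without kidney FFPE (0.154). Among the 4 endocrine genes, Vdr was lost without heart Frozen (0.688), kidney Frozen (0.306) or kidney FFPE (0.253). Without heart Frozen or without kidney Frozen, Cyp27b1 (0.341 and 0.473) and Pth1r (0.170 and 0.134) were lost too.

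**Figure D4:**
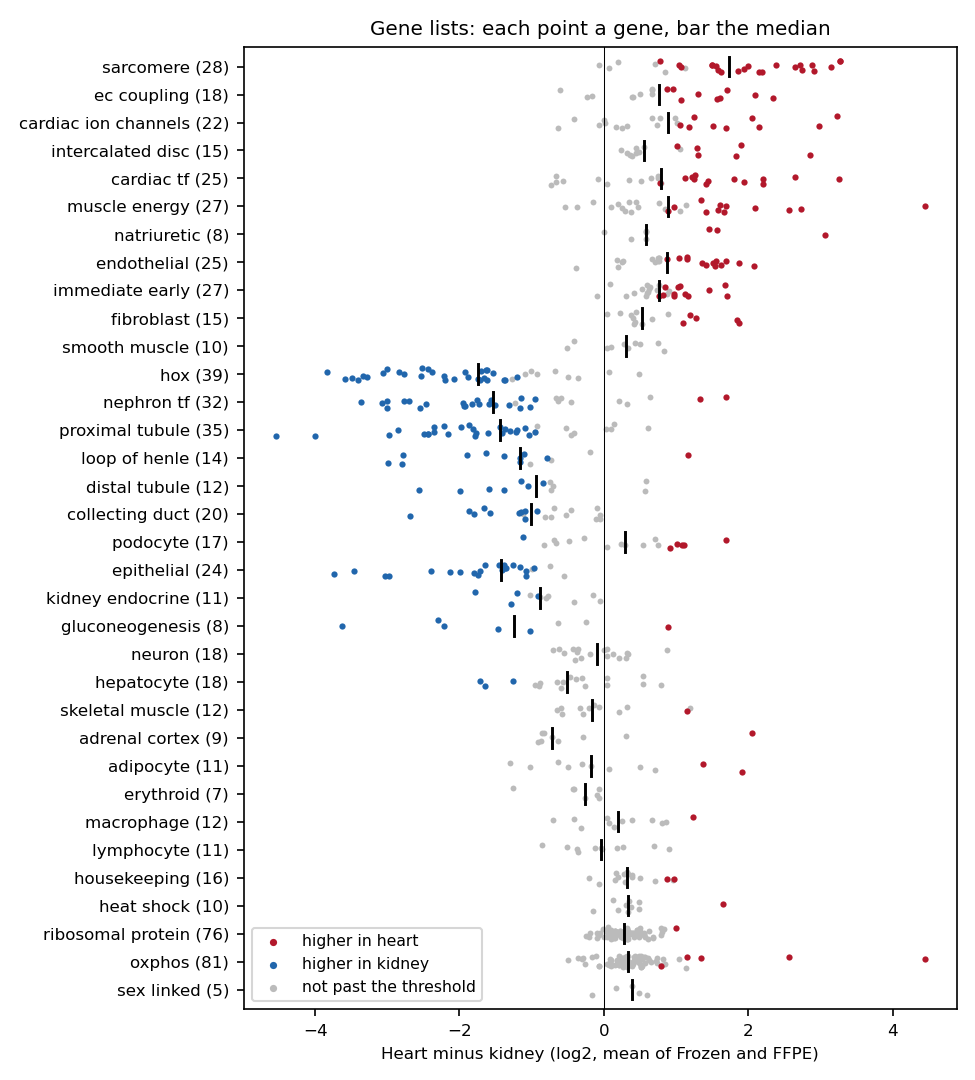
Heart minus kidney difference (log2, x axis) of every gene in each list (rows, with the number of genes tested), averaged over Frozen and FFPE, with the list median as a black bar. Lists of heart muscle lie to the right, Hox, nephron and epithelial lists to the left, and the lists from neuron to sex-linked have medians from -0.72 to 0.40.

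Lists that stand for neither organ gave few calls in number, but several lay above the share of all genes (5.37% in heart, 4.34% in kidney). The share higher in kidney was 16.7% in the hepatocyte list. In heart it was 18.2% for adipocyte, 12.5% for housekeeping, 11.1% for adrenal and 10% for heat shock genes. Macrophage and skeletal muscle genes had 8.33% in heart, and ribosomal protein genes 1.32%. None of 18 neuron, 11 lymphocyte, 7 erythroid and 5 sex-linked genes passed. Of 18 hepatocyte genes, 3 were higher in kidney (Alb, Fgg and Apoc3), and none of the 3 calls remained without heart Frozen, without kidney Frozen or without kidney FFPE. The summed level of the hepatocyte list was 299 and 357 CPM in kidney and 212 and 285 in heart, with no member at 0. In heart, 1 of 12 skeletal muscle genes was higher (Myog), 1 of 9 adrenal genes (Mrap), 2 of 11 adipocyte genes (Fabp4 and Pparg) and 1 of 12 macrophage genes (C1qa). The adipocyte genes Adipoq and Plin1 did not pass. Of 16 housekeeping genes, B2m and Actb were higher in heart by 0.97 and 0.87, and of 10 heat shock genes Hspb1 was (1.65, with 7.71 and 6.48 in heart and 5.45 and 5.45 in kidney). Of 76 ribosomal protein genes, 1 was higher in heart (Rps20). Rps20 was lost without heart Frozen (adjusted p = 0.438 in limma), kidney FFPE (0.204) or kidney Frozen (0.216), and Hspb1 without heart Frozen (0.173), where it differed by 1.00. Pparg was lost without heart Frozen (0.169) or kidney Frozen (0.0529). Actb was not called under quantile normalization, with the same median and spread in all libraries, or with any 1 of the 4 libraries left out, and B2m, Myog and C1qa not with any 1 left out. None of the 137 called genes named under the naming rule changed sign under any alternative run on them.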

How the data were processed

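H3K27Ac ChIP-seq of 4 mouse organs, Frozen or FFPE, was deposited by the authors as 1 table of log2 CPM values. The submitters' processing notes name Bowtie2, featureCounts, limma and the build mm10, without versions. From the values, each is log2 of a count plus 0.5 relative to a scaled library size (factors 0.749 to 1.22), and 100% of values returned a whole count within 0.001. The main fit used the log2 values. Counts served to describe depth and single genes, to leave out genes at 0, and to set the weights of 1 alternative. Counts, sums and values cover 8 libraries with 4404789 to 6164562 counts each, and counting error is not separated from other error. Input samples were not analysed here. Of 27179 rows, 1275 carried no symbol, 25275 identifiers matched a RefSeq gene table (GRCm38.p6), and 235 at 0 counts in all 8 libraries were left out. The contrast heart minus kidney was fitted with limma 3.58.1 (lmFit and eBayes with trend) in R 4.3.3, with organ and preservation as terms, which leaves 3 residual degrees of freedom, two-sided, with Benjamini-Hochberg adjustment over 26944 genes and a threshold of 0.05. The script was tested on simulated data.

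The comparison, the gene lists and the rule for named genes were chosen with earlier results of these data known. The rule named the 12 largest differences in each direction among called genes with a mean of at least 3 whose libraries did not overlap. It also named up to 4 called members of each list in each direction, all members of 4 short lists, 4 genes of opposite sign in the 2 preservations, and the 4 longest runs of neighbouring genes. Other list members, microRNA genes, gene families and runs are named as illustrations, after their values had been seen. Without stated strand handling, overlapping and antisense genes, such as Mhrt and Myh7, may share reads. Alternatives changed the libraries in the fit, the preservation term, the variance trend, the normalization, the filter on low values, the weights, the fold and the minimum level. Some genes of the lists are counted but not reported here by name.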

Additional observations from a re-analysis of the deposited data

Results flagged for a closer look

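In 4 genes the heart minus kidney difference had opposite signs in the 2 preservations, each over 2-fold, and was furthest apart in this sense among genes with a mean of at least 3. Ifitm1, an interferon-induced membrane protein gene, had 1.08 in Frozen (84 counts in heart, 49 in kidney) and -1.20 in FFPE (32 and 91). AI450353 had 1.18 in Frozen and -1.07 in FFPE. Isx, an intestinal homeobox gene, had -1.20 in Frozen and 1.15 in FFPE, and Sgo2b had -1.26 in Frozen and 1.14 in FFPE. With 1 library for each organ and preservation the difference between preservations was not tested, and none of the 4 genes passed the threshold for heart against kidney.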

How the results depend on the processing

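The preservation term sets heart against kidney within Frozen and within FFPE. Beyond that term, no paired analysis was possible because the columns of the table carry no replicate number. Without preservation as a term, 1274 genes passed (670 higher in heart, 604 in kidney, all 1274 with the same sign in both preservations). Without a variance trend 340 passed (129, 211 and 340). The cause of these losses was not tested. With 1 of the 4 heart and kidney libraries left out, where the lone library is assumed to vary like the others, 647 to 2361 genes passed, 278 to 1209 of them higher in heart and 348 to 1152 in kidney, and 647 to 2239 with the same sign. The fewest overall passed without kidney Frozen (647), followed by heart Frozen (738) and kidney FFPE (1212). Under quantile normalization 1251 genes were higher in heart and 1408 in kidney, and with the same median and spread in all libraries 1262 and 1485, so that the larger direction changed from heart to kidney. Genes at least 1.5-fold apart the same way in both preservations numbered 1763 higher in heart and 1394 in kidney, and at least 4-fold 49 and 89. The other alternatives gave counts over all genes within 1.5 times of those reported. Under them the immediate early count fell from 12 to 7 (no filter on low values, or the same median and spread), the collecting duct count from 10 to 6 (no filter) and the podocyte count in heart from 5 to 3 (the same median and spread). List counts of 0 to 2 moved by at most 2, with housekeeping genes going from 2 to 0 with no filter and ribosomal protein genes from 1 to 3 when the 4 heart and kidney libraries alone were fitted. Of 137 called genes named under the rule, 65 passed under every alternative that tested them, 68 were lost without a variance trend, and none changed sign. With 87 to 116 counts at the median gene, depth limits short and weakly marked genes, such as the microRNA genes, most.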

Other observations

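Gene families were also grouped by the letters of the symbol before its first digit, for 294 stems with at least 10 genes tested, a grouping chosen after the fit had been seen and described here without a test. Over all genes tested, 4.34% were higher in kidney and 5.37% in heart. Of 381 genes with the stem Slc, the solute carriers, 69 (18.1%) were higher in kidney. In heart 16 (4.20%) were higher, which is below the share of all genes. Those higher in heart included the adenine nucleotide carrier Slc25a4 (1.61), the nucleoside transporter Slc28a2 (1.99) and the insulin-regulated Slc2a4 (1.34). Of 34 claudins, 9 (26.5%) were higher in kidney, led by Cldn8 (-3.46), Cldn2 (-3.03) and Cldn10 (-2.79). The 2 higher in heart (5.88%, near the share of all genes) were Cldn5 (2.08) and Cldn19 (1.16). Of 21 Ugt genes, the glucuronosyltransferases that make compounds soluble for excretion, 11 (52.4%) were higher in kidney. Of 17 Klf genes, 5 (29.4%) were higher in heart (Klf2, Klf4, Klf6, Klf7 and Klf13) and none in kidney.

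Members of 1 family lay on opposite sides in other cases. The Iroquois genes Irx1 and Irx2 were higher in kidney (-1.56 and -1.73) and Irx4, a factor of the ventricle, was higher in heart (1.42). Olfactory receptor genes numbered 1126, with a family median of -0.42. Of these, 29 (2.58%) were higher in kidney and 1 in heart, below the 4.34% and 5.37% of all genes.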
